A study of Callithrix jacchus with 20 samples.

Results

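The comparison described here is the change from precursor of mesendoderm cells (pre-ME), pre-induced without Activin A (ActA), to the somatic cells sorted from day 4 embryoid bodies (EBs) made from such pre-ME. It rests on 4 of the 20 RNA-seq libraries of the series, chosen by their labels: 2 biological replicates of pre-ME − ActA and 2 of the somatic cells, called soma below. All came from induced pluripotent stem cells of the common marmoset (Callithrix jacchus) of 1 line, DPZ_cjiPSC2, kept in cjPSCM medium (spelled cjEPSCM in the titles of the soma libraries). Pre-ME cells received the GSK3 inhibitor CHIR at 3 µM, a WNT pathway agonist, for 24 h without ActA, where the parallel arm of the study added 100 ng/ml ActA, a Nodal-like signal. EBs then grew for 4 days with BMP4 (500 ng/ml) and SCF (100 ng/ml) as well as EGF (50 ng/ml) and LIF (10 ng/ml), the medium that induces primordial germ cell-like cells (cjPGCLCs) in the same EBs. The labels of the soma libraries differ on the sort: titles give INTa6-EpCAM-, the characteristics give CXCR4-EpCAM-, and the design text of the series gives cells negative for both CXCR4 and INTalpha6. Pre-ME was an unsorted adherent culture and soma a sorted EB fraction, so the effects of time, growth factors, EB culture and sorting cannot be told apart. The values describe 1 cell line, and p-values measure the spread between the replicates of that line.

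In the embryo, cells leaving the primitive streak become paraxial, intermediate, lateral plate or extraembryonic mesoderm, and the strength of BMP signalling helps to set which. BMP also drives the amnion, and lateral plate mesoderm, extraembryonic mesoderm and amnion share many transcription factors, among them HAND1, GATA6 and ISL1. HOX genes are switched on in sequence along each cluster as mesoderm forms, and so mark axial position. In bulk RNA, fewer cells of a type and less RNA of a gene per cell cannot be told apart.

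Soma libraries held fewer reads than pre-ME libraries. Reads counted on genes came to 17491202 and 10465135 in pre-ME replicates 1 and 2, against 4784783 and 7049621 in soma replicates 1 and 2. Values below are the deposited normalised counts (reads divided by a size factor per library), given for replicate 1 and then replicate 2. A floor of 3 reads corresponded to 1.77 and 2.97 normalised counts in pre-ME, and to 6.92 and 4.64 in soma. The test of each gene was the quasi-likelihood F-test of edgeR in a fit over all 20 libraries with Benjamini-Hochberg adjustment, and a gene was called when the adjusted p was below 0.05 and the log2 fold change beyond 2 in either direction. Where both libraries of a group held at most 3 reads for a gene, the fold is given as a lower bound against 3 reads in each library.

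Soma differed from pre-ME in both directions, with more genes called higher than lower. Of 15795 genes tested, 788 were higher in soma (4.99% of those tested) and 467 were lower (2.96%), and the median log2 fold change over all tested genes was 0.00. Without the fold threshold, 3246 genes (20.6%) were higher and 3423 (21.7%) lower at the same adjusted p. The normalised counts of soma and pre-ME did not overlap in 11834 of the tested genes (74.9%). Lack of overlap by itself thus sets few genes apart. Pre-ME was at the floor for 162 of the genes called higher, and for 39 of these the lower bound of the fold lay within the threshold. Soma was at the floor for 188 of those called lower, and for 119 of these the lower bound of the fold lay within the threshold, so for them the size of the fall was not measurable at the depth of the soma libraries. Under a test against the fold threshold itself (glmTreat), 293 genes were called higher and 71 lower.

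**Figure D1:**
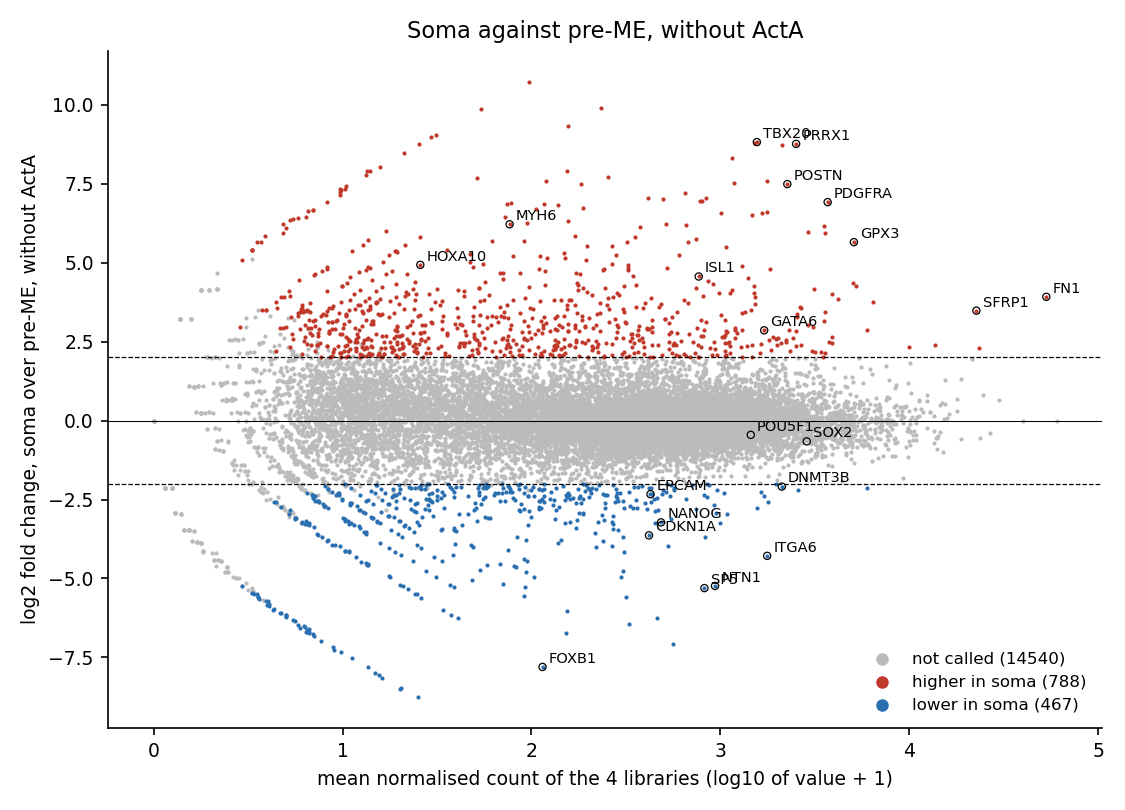
Log2 fold change of soma over pre-ME without ActA for 15795 tested genes (vertical axis) against the mean normalised count of the 4 libraries (horizontal axis, log10 of value + 1). Red points are the 788 genes called higher in soma, blue points the 467 called lower, dashed lines the fold threshold, and folds of genes with a group at the floor are fitted estimates rather than bounds; FN1 and SFRP1 lie at the right among the highest counts, POU5F1 and SOX2 between the dashed lines.

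The genes of the surface proteins named in the sort labels were lower in soma than in pre-ME. ITGA6, the integrin subunit INTα6, stood at 3448 and 3264 normalised counts in pre-ME and at 201 and 155 in soma. The soma libraries lay far below both pre-ME libraries, a log2 fold change of −4.28 ± 0.30 (SE, n = 2 against 2, edgeR adjusted p = 1.89e-08). EPCAM, an epithelial adhesion protein of pluripotent and germ cells, fell from 656 and 759.8 to 141 and 145 (log2 fold change −2.33 ± 0.39, adjusted p = 1.55e-04). CXCR4, a chemokine receptor, stood at 141 and 144 in pre-ME and 53 and 49.5 in soma, and its log2 fold change of −1.51 ± 0.33 (adjusted p = 0.00142) did not reach the fold threshold. Against the cjPGCLCs of the same pre-ME, sorted as the marker-positive cells of the EBs, all 3 genes were lower in soma, with log2 fold changes of −3.22 ± 0.29 for ITGA6, −3.62 ± 0.39 for EPCAM and −4.52 ± 0.31 for CXCR4. As these genes are the sort markers or their alternatives in the labels, their values check the sort and are no further result.

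Pluripotency genes split into a group that fell and a group that stayed within the threshold. Of 20 tested members of the pluripotency list, 10 were called lower and none higher, with a median log2 fold change of −2.03. Between 9 and 11 were lower when single libraries were left out. NANOG, a core pluripotency factor, stood at 758 and 988 in pre-ME and 92.2 and 97.5 in soma, a log2 fold change of −3.22 ± 0.32 (adjusted p = 8.34e-07). Both soma values were below the pre-ME values by a wide margin.

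DNMT3B, the de novo DNA methyltransferase of primed cells, fell from 3519 and 3297 to 803 and 831 (log2 fold change −2.09 ± 0.32). ZFP42, OTX2 and ZIC2 fell, with log2 fold changes of −2.25, −2.92 and −2.76. UTF1 was at least 16.1-fold lower and the Nodal-type ligand gene GDF3 at least 23.4-fold, both with soma at the floor. So was SOX3, a SOXB1 factor that stands in the neural list and not in this one, at least 30.9-fold lower. PRDM14 stood at 34.2 and 26.7 in pre-ME and had no read in either soma library, at least 5.27-fold lower (adjusted p = 0.00503), and without soma replicate 2 its adjusted p was 0.0544.

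Some other members of the pluripotency list were lower by less than the fold threshold. By adjusted p alone, 16 of the 20 tested members were lower in soma and 1 was higher. POU5F1, which encodes OCT4, stood at 1645 and 1668 in pre-ME and 1287 and 1187 in soma, a log2 fold change of −0.45 ± 0.17 (adjusted p = 0.0416). SOX2 stood at 3329 and 3624 against 2214 and 2282 (−0.66 ± 0.25, adjusted p = 0.043). LIN28A, an RNA-binding protein of pluripotent and early embryonic cells, stood at 13858 and 13121 against 6492 and 5995 (−1.14 ± 0.22), and SALL4 had a log2 fold change of −1.26 ± 0.19. Each of these 4 genes was lower in both soma libraries than in both pre-ME libraries.

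Of 18 tested germ cell genes, 8 were called lower in soma than in pre-ME and none higher (median log2 fold change −1.93), UTF1 and PRDM14 among them. The list holds the sort markers ITGA6 and CXCR4, and without them 7 of 16 were lower, with a median of −1.93. NR5A2, an orphan nuclear receptor, stood at 73.1 and 71.3 in pre-ME and at 0 and 1.55 in soma, at least 12.49-fold lower. The germ cell specifiers did not pass both thresholds. SOX17 stood at 199 and 255 in pre-ME against 48.4 and 118 in soma (log2 fold change −1.41 ± 0.53), PRDM1 at 408 and 290.3 against 99.2 and 85.1 (−1.97 ± 0.25), and TFAP2C at 61.3 and 114 against 18.4 and 27.8 (−1.89 ± 0.53). All 3 specifiers were lower in both soma libraries, and they crossed the fold threshold when single libraries were left out: SOX17 at −2.27 without soma replicate 2, PRDM1 at −2.20 without pre-ME replicate 2 and −2.08 without soma replicate 1, and TFAP2C at −2.30 without pre-ME replicate 1 and −2.28 without soma replicate 2. Among the rest, KIT, the receptor for SCF, stood at 439.8 and 353 in pre-ME and 749 and 965 in soma (log2 fold change 1.08 ± 0.22).

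**Figure D2:**
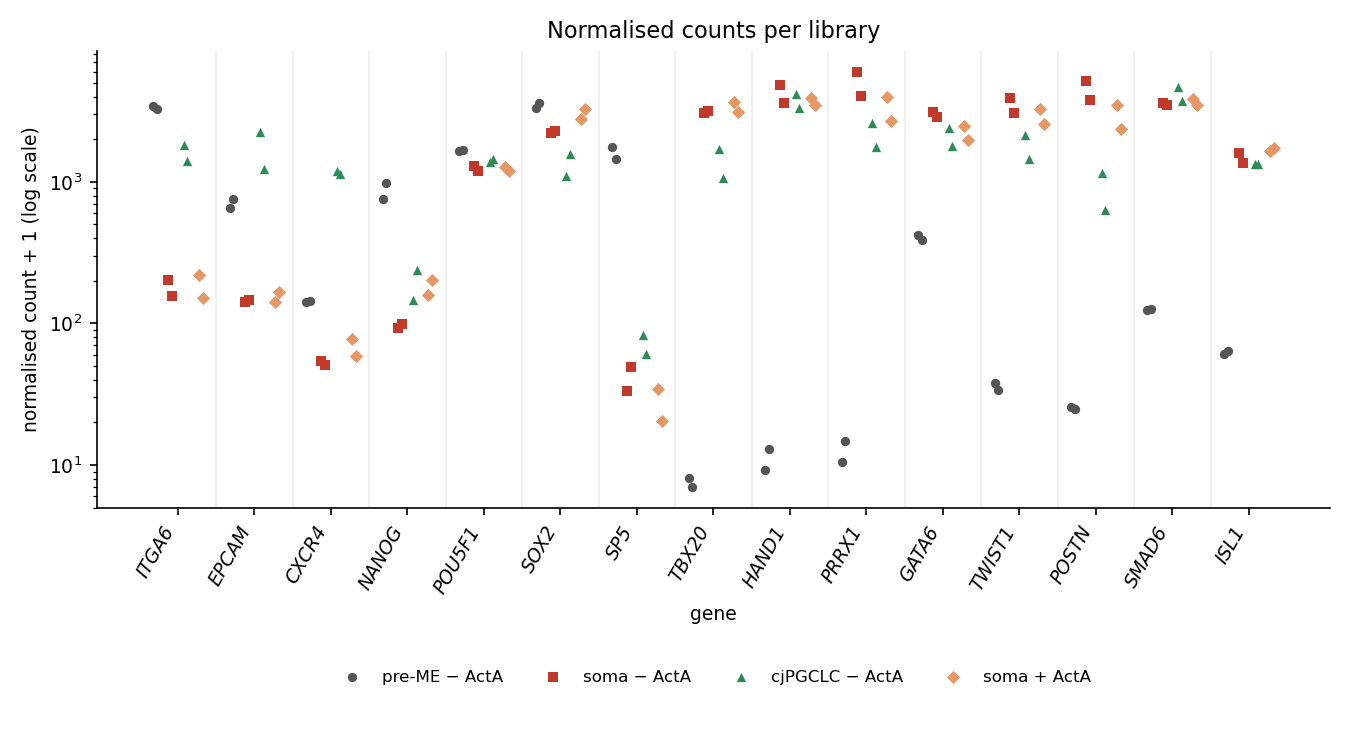
Normalised counts + 1 of genes described in the text, on a log axis, 1 point per library, for pre-ME − ActA (circles), soma − ActA (squares), cjPGCLCs − ActA (triangles) and soma + ActA (diamonds). ITGA6, EPCAM, NANOG and SP5 lie lower in soma than in pre-ME, POU5F1 and SOX2 lie close together, and TBX20 to ISL1 lie higher in soma.

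Several genes that respond to WNT signalling or act in the primitive streak fell. SP5, a direct WNT target of the streak, stood at 1763 and 1444 in pre-ME and 32.3 and 48.0 in soma (log2 fold change −5.31 ± 0.27, adjusted p = 4.79e-10). CDX1, a caudal-type homeobox factor, fell from 199 and 147 to 9.22 and 7.74 (−4.39 ± 0.40, adjusted p = 3.23e-07). CDX2 fell by 2.63 on the log2 scale and SP8 by 3.82. FGF8, a streak growth factor, was at least 5.83-fold lower. In each of these genes both soma libraries were below both pre-ME libraries.

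The streak factors themselves were low in both groups. TBXT (brachyury) reached at most 0.991 normalised counts in any of the 4 libraries, and EOMES stood at 8.84 and 3.96 in pre-ME against 2.31 and 3.09 in soma. MIXL1 stood at 4.13 and 4.95 against 9.22 and 4.64 (log2 fold change 0.52 ± 0.67). At this depth no difference was detectable for these 3 genes. Of 18 tested members of the primitive streak list, 4 were called lower and 3 higher, with a median of −1.15, or −0.05 with genes at the floor set to their bound.

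The 3 streak list members called higher were APLNR, WNT3 and EVX1. APLNR, the apelin receptor of early mesoderm, rose from 42.4 and 22.8 to 777 and 589 (log2 fold change 4.29 ± 0.35, adjusted p = 9.25e-08), while the ligand gene APLN fell from 550.0 and 593 to 18.4 and 18.6 (−4.97 ± 0.56, adjusted p = 3.04e-06). Receptor and ligand thus moved in opposite directions, with no overlap between the groups for either gene. EVX1, a posterior mesoderm homeobox factor, stood at 111 and 70.3 in pre-ME and 381 and 401 in soma (2.05 ± 0.48). It lay inside the fold threshold without pre-ME replicate 2 (1.76) or soma replicate 2 (1.98). So it did with no filter on low counts (1.99) and after thinning to the shallowest library (1.98). WNT3 rose by a log2 fold change of 2.87 ± 0.54 to 16.1 and 23.2 normalised counts.

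WNT feedback and target genes as a list moved both ways, with 4 of 21 tested members called higher and 4 lower (median log2 fold change −0.52). AXIN2, the general feedback gene of the pathway, stood at 1931 and 1697 in pre-ME and 973 and 893 in soma (−0.99 ± 0.14, adjusted p = 2.58e-05), within the fold threshold. LEF1, a nuclear mediator of WNT signalling, rose from 513 and 356 to 4656 and 4686 (3.39 ± 0.28), and SFRP1, a secreted WNT antagonist, from 3639.6 and 3656 to 43950.4 and 39251 (3.48 ± 0.45). SP5, SP8, CDX1 and CDX2 were the members called lower, while LEF1, SFRP1, TNFRSF19 and MSX2 were called higher.

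Genes of lateral plate mesoderm, mostly transcription factors, had the highest median change of the 26 gene lists. Of 27 tested members, 16 were called higher and 1 lower, and the median log2 fold change was 3.17 (3.06 with bounds), against 0.00 over all genes. TBX20, a T-box factor of heart and extraembryonic mesoderm, stood at 7.07 and 5.94 in pre-ME and 3067 and 3151 in soma, a log2 fold change of 8.82 ± 0.44 (adjusted p = 3.47e-10). HAND1, a bHLH factor of extraembryonic and lateral plate mesoderm, rose from 8.25 and 11.9 to 4845 and 3588 (8.72 ± 0.35), and its partner HAND2 from 6.48 and 6.93 to 3509.9 and 2567 (8.78 ± 0.63). The 3 genes were near the floor in pre-ME and at 2567 normalised counts or more in both soma libraries.

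PRRX1, a homeobox factor of limb and body wall mesenchyme, rose from 9.43 and 13.9 to 6012 and 4024 (log2 fold change 8.76 ± 0.34). GATA5, of the cardiac GATA group, had 0.59 and 0 normalised counts in pre-ME and 567 and 362 in soma, at least 196-fold higher (adjusted p = 3.10e-08). GATA4 rose from 14.7 and 28.7 to 2161 and 1813 (6.56 ± 0.47). GATA6 was already present in pre-ME at 421 and 388 and stood at 3139 and 2865 in soma (2.86 ± 0.28), so the 3 GATA genes differed in how far they rose and all lay higher in both soma libraries.

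TBX2 rose by a log2 fold change of 6.57 ± 0.31, ISL1, a factor of second heart field, hindlimb and amnion, by 4.56 ± 0.20, and MSX1, a BMP-responsive homeobox factor, by 3.59 ± 0.24. TBX5, of forelimb and heart, rose to 69.2 and 68.1 (3.06 ± 0.45). MSX2, LIX1, PRRX2 and PITX1 were also among the 16. PITX1 stood at 30.0 and 7.74 in soma, and its adjusted p was between 0.0562 and 0.194 when either pre-ME library or soma replicate 1 was left out. The member called lower was CRABP1, a retinoic acid-binding protein, at 961 and 891 in pre-ME and 219 and 190.3 in soma (−2.21 ± 0.25).

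Some defining genes of the list did not rise or were hardly detected. BMP4 stood at 702 and 833 in pre-ME and 440.5 and 285 in soma (log2 fold change −1.13 ± 0.37). FOXF1, of splanchnic mesoderm, was below the low-count filter, with at most 3.09 normalised counts in any of the 4 libraries. NKX2-5, of committed heart cells, also failed the filter, with no read in pre-ME and 11.5 and 7.74 normalised counts in soma.

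**Figure D3:**
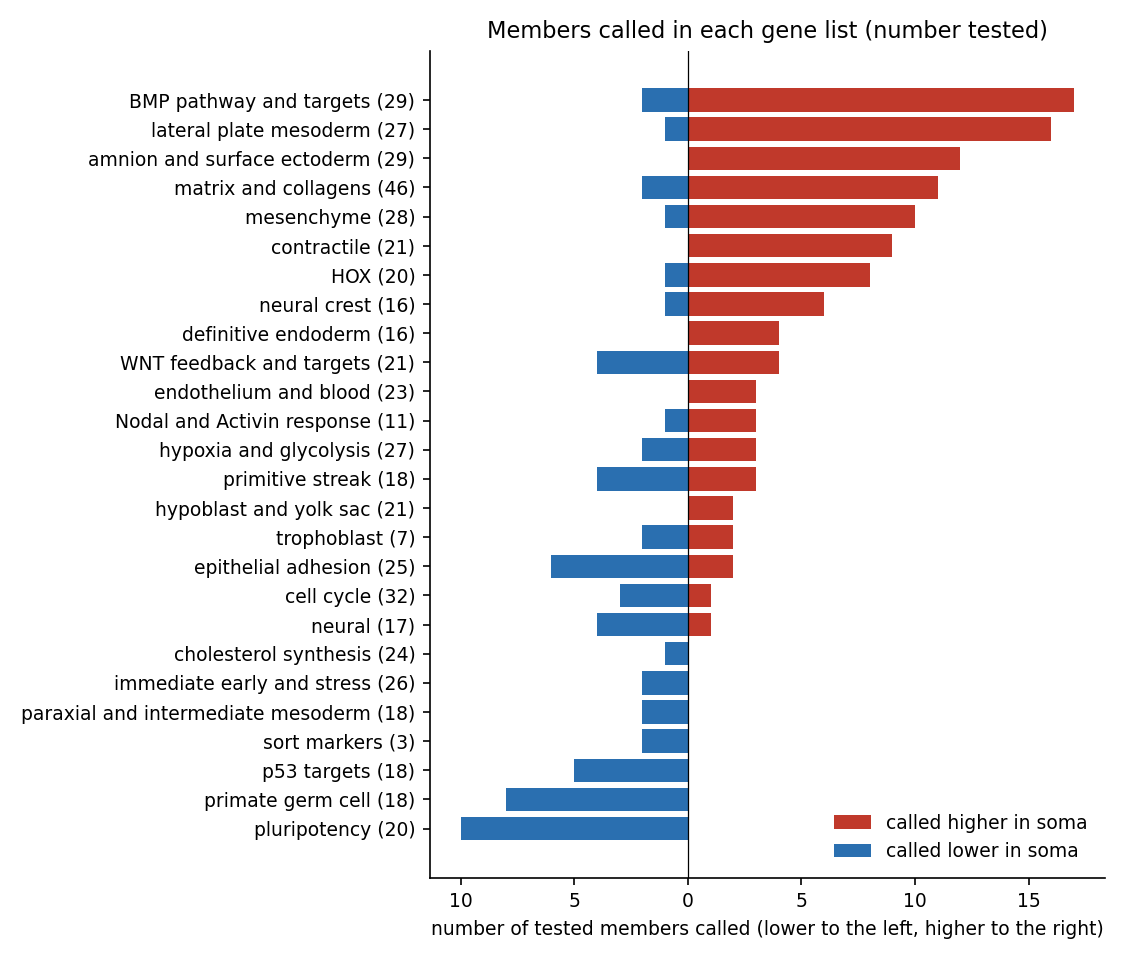
Number of tested members of 26 gene lists called higher (red, right) or lower (blue, left) in soma against pre-ME without ActA, with the number tested in brackets. The BMP list has 17 members called higher of 29 and the lateral plate list 16 of 27, while the pluripotency list has 10 called lower of 20; 4.99% of all tested genes were called higher and 2.96% lower.

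The other mesoderm lists showed no such rise. Of 18 tested paraxial and intermediate mesoderm genes, none was called higher and 2 were called lower (median −1.51, or −0.43 with bounds). Without soma replicate 1, 4 were lower, and with no filter on low counts 2 were higher and 4 lower. LFNG, the Notch modifier of the somite clock, fell from 808 and 632 to 157 and 141 (log2 fold change −2.31 ± 0.50), and SIX2, of kidney progenitors, from 70.7 and 72.3 to 2.31 and 9.28 (−3.49 ± 0.62). TBX6, the presomitic factor, stood between 0.991 and 10.8 normalised counts in the 4 libraries, and PAX3 had a log2 fold change of 0.94 ± 0.39 (adjusted p = 0.0609). No difference was detectable for TBX6 at this depth.

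Endothelial and blood genes were expressed in both groups only in part, with the blood genes GATA1, SPI1 and HBZ below the low-count filter. Of 23 tested, 3 were called higher and none lower, with a median of 0.15, but 3 were lower without soma replicate 2. TEK, the angiopoietin receptor, rose from 311 and 298 to 2119 and 2157 (log2 fold change 2.78 ± 0.25, adjusted p = 3.22e-07). KDR, the VEGF receptor of early mesoderm, stood at 558 and 397 against 1630.4 and 1819 (1.82 ± 0.20, adjusted p = 2.05e-06), and of the alternatives run it passed the fold threshold only without pre-ME replicate 1 (2.07).

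The endothelial genes CDH5 and PECAM1 did not pass the thresholds. CDH5 stood at 876 and 729 in pre-ME and at 853 and 1598 in soma (0.59 ± 0.40), and PECAM1 at 3121 and 3503 against 1411 and 1617 (−1.16 ± 0.21). Some blood and endothelial genes differed between the soma replicates: TAL1, a blood and endothelial master factor, stood at 367 and 757, and RUNX1 at 30.0 and 69.6, each higher in replicate 2. The soma values of TEK, KDR and PECAM1, given above, lay closer together.

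Mesenchymal genes rose together with the lateral plate factors. Of 28 tested members of the mesenchyme list, 10 were called higher and 1 lower (median log2 fold change 1.52). TWIST1, a bHLH factor of mesenchymal transition, rose from 37.1 and 32.7 to 3927 and 3049 (6.59 ± 0.34, adjusted p = 4.88e-10). SNAI2, a repressor of epithelial genes, rose from 84.3 and 82.2 to 2481 and 2564 (4.89 ± 0.21), and SNAI1 by 2.37 ± 0.26. PDGFRA, the PDGF receptor of mesoderm and mesenchyme, rose from 61.3 and 56.5 to 8217 and 6436 (6.92 ± 0.34). In each of these genes the soma libraries were above both pre-ME libraries.

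POSTN, a matricellular protein, rose from 24.8 and 23.8 to 5189 and 3797 (log2 fold change 7.49 ± 0.41), TGFBI, a TGF-β-induced matrix protein, from 131 and 90.1 to 7862 and 6275 (5.95 ± 0.33), and the proteoglycan gene DCN from 471 and 537 to 10820.4 and 9100.0 (4.28 ± 0.29). FN1, fibronectin, was the gene with the largest gain in normalised counts by the rule used, from 7707 and 5201 to 101191 and 98126 (3.92 ± 0.26, adjusted p = 8.91e-09). VIM and CDH2, usual markers of mesenchymal transition, were high before the change: VIM stood at 20552 and 25009 in pre-ME and 37996 and 35069.6 in soma (0.65 ± 0.22), and CDH2 had a log2 fold change of 0.45 ± 0.17. CDH1, E-cadherin, was at the floor in all 4 libraries, with at most 1.77 normalised counts. LOX, a collagen cross-linking enzyme, was the member called lower (−3.23 ± 0.40).

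Matrix genes behaved unevenly. Of 46 tested, 11 were called higher and 2 lower, and the median log2 fold change was 0.95. The members lower came to 1 without soma replicate 1 and to 0 without pre-ME replicate 1. The collagen VI chains rose, COL6A2 from 10.6 and 13.9 to 1928 and 1146 (6.96 ± 0.60), COL6A3 by 6.16 ± 0.51 and COL6A1 by 2.68 ± 0.44. COL3A1 rose from 127 and 166 to 3330.1 and 2378 (4.26 ± 0.52), COL1A1 from 248 and 188 to 2285 and 2469 (3.41 ± 0.69), and HAPLN1, a hyaluronan link protein, from 577 and 616 to 6792 and 6360.1 (3.43 ± 0.28). The partner chain COL1A2 stood at 25.3 and 31.7 against 66.9 and 94.4 (1.51 ± 0.38, adjusted p = 0.00466). Basement membrane genes stayed within the threshold, with COL4A1 at 9201 and 7595 in pre-ME and 9298 and 10248 in soma (0.19 ± 0.21), and LAMB1 at a log2 fold change of 0.47 ± 0.17.

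Contractile genes rose in part. Of 21 tested, 9 were called higher and none lower (median log2 fold change 1.72). MYH6, the atrial myosin heavy chain, rose from 0.59 and 3.96 to 111 and 187 (6.22 ± 0.99, adjusted p = 1.04e-04), TNNI1, the slow skeletal and fetal cardiac troponin I, from 21.2 and 34.7 to 724 and 602 (4.58 ± 0.36), and MYL7, the atrial light chain, from 18.9 and 30.7 to 503 and 283 (3.99 ± 0.55). All 3 were higher in both soma libraries. MYOCD, the smooth and cardiac muscle coactivator, rose from 33.6 and 31.7 to 286 and 382 (3.33 ± 0.29), and ACTA2, smooth muscle actin, from 1086 and 1331 to 5989 and 5175 (2.18 ± 0.18). TTN, ACTC1, DES and CNN1 completed the 9, at log2 fold changes of 2.99, 2.95, 2.67 and 2.38. TAGLN, another smooth muscle gene, stood at 2905 and 3075 against 4199 and 4354 (0.49 ± 0.26, adjusted p = 0.149). Actin and myosin genes have near-identical relatives, and reads shared among them make the value of a single member uncertain.

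BMP pathway genes and targets held the largest number of members called higher. Of 29 tested, 17 were called higher and 2 lower, with a median log2 fold change of 2.90. The inhibitory SMADs rose, SMAD6 from 124 and 125 to 3607 and 3470.1 (4.80 ± 0.28, adjusted p = 1.81e-09) and SMAD7 from 119.7 and 134 to 2214 and 2047 (4.05 ± 0.23), and so did the BMP-regulated SMAD9, from 63.7 and 87.2 to 1494 and 1776 (4.43 ± 0.20). The groups did not overlap for any of these SMAD genes.

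Secreted BMP antagonists rose as well. NOG, noggin, rose from 123 and 121 to 2253 and 2110.2 (log2 fold change 4.13 ± 0.29), and BMPER from 4.13 and 1.98 to 184 and 170.2 (5.68 ± 0.36). GREM1 and CHRD rose by 2.90 ± 0.45 and 2.87 ± 0.32. BAMBI, a decoy receptor, rose from 527 and 719 to 5535 and 4895 (3.04 ± 0.29). The ligand BMP5 rose from 25.3 and 12.9 to 833 and 425 (4.92 ± 0.44).

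The immediate BMP targets of the ID family were within the fold threshold. ID1 stood at 996 and 1051 against 2474 and 2175 (log2 fold change 1.15 ± 0.25), ID2 had 1.09 ± 0.19, ID3 had 0.55 ± 0.20 and ID4 had 0.62 ± 0.36. RGMB, a BMP co-receptor, fell from 1980.2 and 1839 to 221 and 275 (−2.96 ± 0.19, adjusted p = 8.84e-09). The ligand BMP2 stood at 41.3 and 50.5 against 9.22 and 9.28 (−2.32 ± 0.70, adjusted p = 0.0137), and its adjusted p was 0.0505, 0.0637 and 0.0942 without pre-ME replicate 2, soma replicate 1 and soma replicate 2. Several members of this list, MSX1, MSX2, TBX2, TBX3, DLX5, GATA2, GATA3, HEY1, BAMBI, BMP4 and SMAD7, also stand in other lists.

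Genes of amnion and surface ectoderm rose in part, with 12 of 29 tested called higher and none lower (median log2 fold change 1.76). VTCN1, an immune checkpoint protein used as an amnion marker, had 0.59 and 1.98 normalised counts in pre-ME and 438 and 173 in soma, at least 129-fold higher (adjusted p = 1.58e-06). DLX5 rose from 21.8 and 8.92 to 514 and 416 (4.79 ± 0.36), and DLX6 was at least 87.6-fold higher at 233 and 183. GATA3 rose from 438 and 486 to 4737 and 4477 (3.29 ± 0.28), HEY1, a Notch and BMP target, from 110.2 and 118 to 2846 and 2512 (4.53 ± 0.17), and CDH3, P-cadherin, from 211 and 122 to 3434 and 2248 (4.04 ± 0.44). GABRP, an amnion marker, had no read in pre-ME and 20.8 and 13.9 in soma, at least 7.32-fold higher.

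TFAP2A, a factor of both amnion and ectoderm, stood at 187 and 198 against 796 and 539.9 (log2 fold change 1.76 ± 0.37, adjusted p = 0.00116), within the fold threshold. KRT8 rose from 546 and 321 to 2949.6 and 1683 (2.38 ± 0.46), with a log2 fold change of 1.91 without soma replicate 1, and its partner KRT18 had 1.77 ± 0.34. TP63 and KRT5, which define stratified surface ectoderm, had no read in either soma library. Of 7 tested trophoblast genes, 2 were called higher, GATA3 and PGF, a placental growth factor at 15.9 and 14.9 against 385 and 275 (4.37 ± 0.32), and 2 lower, or 1 without pre-ME replicate 2 or soma replicate 1. GCM1, a defining trophoblast gene, had no read in any of the 4 libraries.

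The definitive and extraembryonic endoderm genes called higher all stood in other lists as well, GATA4 and GATA6 in that of lateral plate mesoderm. The 4 of 16 definitive endoderm genes called higher were GATA4, GATA6, SOX9 and CLDN6, with a list median of −0.97 (−0.20 with bounds). CLDN6, a tight junction protein of early embryonic cells, had a log2 fold change of 2.03 ± 0.35. It lay inside the fold threshold without pre-ME replicate 1 (1.75) or soma replicate 2 (1.93). So it did with no filter on low counts (1.97) and after thinning to the shallowest library (1.89). FOXA2, the pioneer factor of endoderm, stood at 5.31 and 7.93 in pre-ME and 4.61 and 0 in soma. The yolk sac gene AFP had no read in either soma library, and 2 of 21 tested hypoblast and yolk sac genes were called higher, PDGFRA and GATA6. Over all tested genes, 4.99% were called higher. By adjusted p alone, 5 members were higher and 3 lower, against 20.6% and 21.7% of all tested genes. SOX9, a factor of crest, cartilage and endoderm, rose from 276 and 293 to 1815 and 1799 (log2 fold change 2.64 ± 0.26).

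Of 17 tested neural genes, 6 were lower and 6 higher by adjusted p alone, against 21.7% and 20.6% of all tested genes. Past both thresholds, 4 were called lower and 1 higher, against 2.96% and 4.99% of all tested genes. The median log2 fold change of the list was −0.44. SOX3, given above, was one of those lower. MAP2, a neuronal microtubule protein, fell from 1679 and 1652 to 228 and 217 (−2.94 ± 0.16, adjusted p = 9.68e-10), and GBX2, a hindbrain and epiblast homeobox factor, from 844 and 778 to 143 and 186 (−2.32 ± 0.49). DLK1, an imprinted Notch-ligand-like protein that is not restricted to neural cells, was the one called higher, from 20 and 16.8 to 321 and 347 (4.12 ± 0.50). The called members of this list other than DLK1 were thus lower in soma.

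Of 16 tested neural crest genes, 6 were called higher, TWIST1, SNAI2 and SOX9 among them, and 1 lower (median log2 fold change 1.02). NGFR, the low-affinity neurotrophin receptor, rose from 1.77 and 2.97 to 94.6 and 145, at least 50.6-fold. SOX10, which defines migrating crest, stood at 6.48 and 5.94 in pre-ME and 11.5 and 9.28 in soma (0.67 ± 0.58, adjusted p = 0.374). RXRG, a retinoid receptor, fell from 298 and 375 to 55.3 and 71.2 (−2.42 ± 0.33).

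HOX genes were called higher at the posterior end of the A cluster and at paralogue groups 3 and 4. Of 20 tested, 8 were higher and 1 lower (0 lower without soma replicate 2), and the median log2 fold change was 1.27, or 2.32 with bounds. HOXA13, the last gene of the cluster, had the highest counts of those 8, from 30.7 and 37.6 in pre-ME to 572 and 523 in soma (3.99 ± 0.36, adjusted p = 2.94e-07). HOXA11 had no read in pre-ME and 27.7 and 21.7 in soma, at least 10.4-fold higher, HOXA10 stood at 1.77 and 0.991 against 39.2 and 57.2, at least 20.3-fold higher, and HOXA9 rose from 2.95 and 0.991 to 27.7 and 35.6 (3.78 ± 0.53). These posterior genes were low in counts but higher in both soma libraries.

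HOXD3 rose from 1.77 and 4.95 to 60 and 55.7 (log2 fold change 4.17 ± 0.49), HOXB3 was at least 10.4-fold higher and HOXD4 at least 6.01-fold. HOXA3 stood at 17.7 and 6.93 against 53 and 57.2 (2.05 ± 0.50), and its log2 fold change was 1.59 without pre-ME replicate 2 and 1.96 without soma replicate 2. It was 1.989 with no filter on low counts and 1.995 after thinning to the shallowest library. HOXA4 and HOXA5 were at the floor in both groups and failed the filter. The 3 HOXC genes tested, HOXC4, HOXC6 and HOXC8, had no read in pre-ME or soma.

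**Figure D4:**
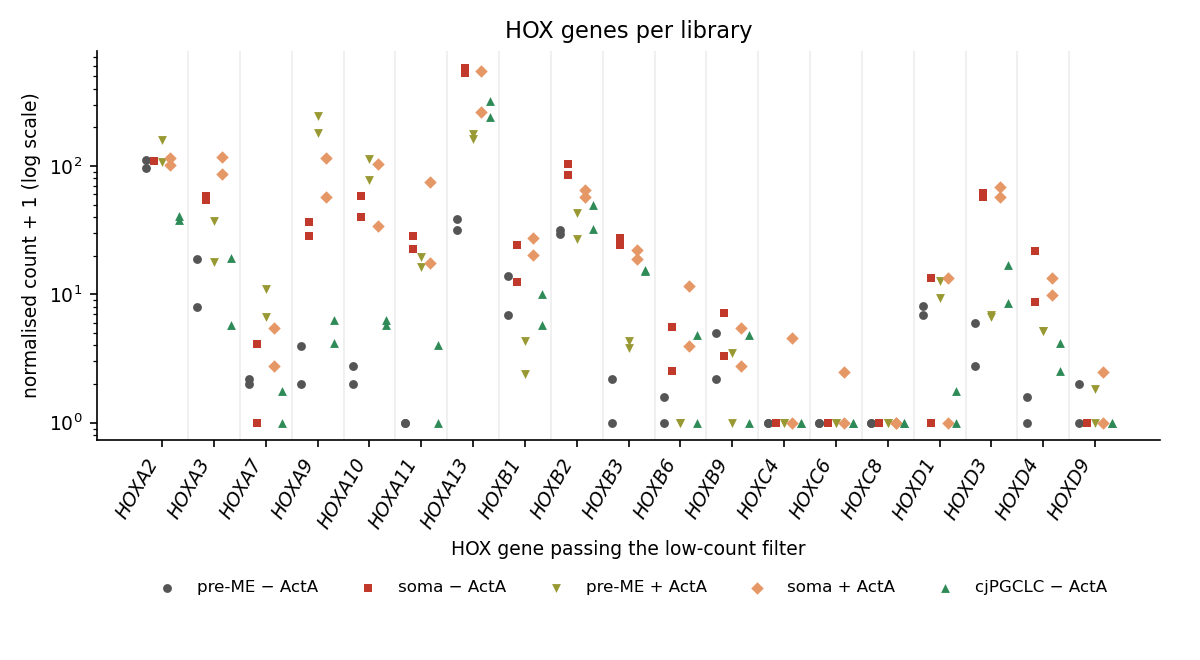
Normalised counts + 1 of HOX genes that passed the low-count filter (1 of the 20 is not plotted), on a log axis, 1 point per library, for pre-ME and soma with and without ActA and for cjPGCLCs without ActA. HOXA9, HOXA10 and HOXA13 lie higher in soma − ActA than in pre-ME − ActA, while in pre-ME + ActA the first 2 already lie at 77.2 or more.

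Cell cycle genes stayed within the fold threshold apart from inhibitors. MKI67, a proliferation marker, stood at 5349 and 3433 in pre-ME and 4425 and 4784 in soma (log2 fold change 0.04 ± 0.29), and TOP2A had −0.18 ± 0.12, while CCNB1 stood at 1984 and 2078 against 1190.0 and 955 (−0.95 ± 0.13). Of 32 tested members, 3 were called lower and 1 higher (median −0.69). By adjusted p alone, 20 members were lower and 3 higher, against 21.7% and 20.6% of all tested genes. CDKN1A, the p21 inhibitor and p53 target, fell from 679.7 and 861 to 80.7 and 49.5 (−3.63 ± 0.37, adjusted p = 1.22e-06), and CDKN2A from 639 and 795 to 83.0 and 121 (−2.81 ± 0.27). CDKN2B, next to CDKN2A in the genome, moved the other way, from 36.0 and 46.6 to 228 and 237 (2.48 ± 0.34). GADD45G, a growth arrest gene, fell by 2.47 on the log2 scale.

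The p53 target list fell in part, with 5 of 18 tested called lower and none higher (median log2 fold change −0.99). EDA2R fell from 168 and 191 to 4.61 and 7.74 (−4.80 ± 0.49, adjusted p = 1.05e-06), TNFRSF10B, a death receptor, from 311 and 306 to 39.2 and 32.5 (−3.15 ± 0.23), and PHLDA3 from 212 and 257 to 34.6 and 32.5 (−2.83 ± 0.31). FAS was at least 4.02-fold lower, and CDKN1A was the fifth. Every one of the 5 was lower in both soma libraries than in both pre-ME libraries. Over all tested genes, 74.9% did not overlap between the groups, in one direction or the other.

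Epithelial junction genes went in both directions, with 6 of 25 tested called lower and 2 higher (median log2 fold change −0.19, or 0.09 with bounds). Over all tested genes, 2.96% were called lower and 4.99% higher. By adjusted p alone, 6 members were lower and 4 higher, against 21.7% and 20.6% of all tested genes. Without soma replicate 2, 3 were lower and 1 higher, and without pre-ME replicate 1 also 1 was higher. Of the 24 members other than the sort marker EPCAM, 5 were lower. CGN, cingulin, fell from 232 and 205 to 46.1 and 54.1 (−2.14 ± 0.36). OCLN, occludin, was at least 7.43-fold lower, and ESRP1, the epithelial splicing regulator, at least 9.71-fold, with an adjusted p of 0.0617 without soma replicate 2. DSP, desmoplakin, rose from 666 and 418 to 4347 and 3756 (2.87 ± 0.39, adjusted p = 2.32e-05), and the tight junction gene CLDN6 was the other member higher. The desmosomal genes DSG2, DSC2 and JUP had log2 fold changes of 0.17, −0.01 and 0.37 and were not called.

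Outside these lists, the genes with the largest folds included a receptor kinase, an ion channel subunit and secreted proteins. INSRR, an insulin receptor-related kinase, was at least 152-fold higher at 348 and 371. CACNA1C, a calcium channel subunit of heart and smooth muscle, rose from 9.43 and 6.93 to 1414 and 1171 (log2 fold change 7.21 ± 0.32). CRISPLD2, a secreted protein of mesenchyme, rose from 18.3 and 16.8 to 3839.7 and 3138 (7.58 ± 0.24), and SNED1 and SAMD11 by 7.71 ± 0.43 and 7.53 ± 0.35.

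Among the genes that fell most were FOXB1, a forkhead factor of early neural tube, from 241 and 211 to 0 and 1.55 (at least 39.1-fold lower, adjusted p = 2.62e-05), and COL10A1, from 256 and 343 to 0 and 4.64 (at least 51.8-fold lower). AK4, a mitochondrial adenylate kinase, fell from 600.1 and 686 to 11.5 and 4.64 (log2 fold change −6.44 ± 0.54), SOSTDC1, a BMP and WNT antagonist, from 516 and 719 to 11.5 and 13.9 (−5.59 ± 0.47), and NTN1, the guidance cue netrin-1, from 2069 and 1569 to 69.2 and 34.0 (−5.24 ± 0.71). HES3, a Hes repressor of pluripotent and neural cells, fell from 278 and 325 to 2.31 and 6.19 (−6.03 ± 1.01). RASGRF2 fell by 4.95 on the log2 scale and COCH was at least 30.6-fold lower.

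Genes ranked by normalised counts gained, after FN1 and SFRP1, started from low and from high levels. PEG3, an imprinted zinc finger gene, rose from 8667 and 6881 to 39516 and 38246 (log2 fold change 2.29 ± 0.25), AHNAK, a large scaffold protein, from 5164 and 3483 to 22983 and 23330.2 (2.39 ± 0.29), and FBLN1, fibulin-1, from 3406 and 3047 to 18272 and 15075 (2.34 ± 0.19). GPX3, a secreted glutathione peroxidase, rose from 186 and 203 to 10136 and 9815 (5.65 ± 0.23), DOK4 from 472 and 453 to 10082 and 9179 (4.35 ± 0.17), and UNC5B, a netrin receptor, from 872 and 851 to 11397 and 12474 (3.76 ± 0.38). CGNL1, a junctional relative of cingulin, rose by 2.87 ± 0.24. Netrin-1 thus fell where its receptor gene UNC5B rose, in both replicates.

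Ranked by normalised counts lost, YBX3, a cold-shock RNA-binding protein, fell from 9031 and 10378 to 2145 and 2319 (log2 fold change −2.15 ± 0.21). CYP1B1, a target of the aryl hydrocarbon receptor, stood at 3919 and 4481 against 549 and 1318 (−2.18 ± 0.37), and its log2 fold change was −1.71 without soma replicate 1. The glucose transporter gene SLC2A1 stood at 3481 and 2833 against 821 and 767 (−2.02 ± 0.14), close to the fold threshold. It lay inside the threshold without pre-ME replicate 1 (−1.88) or soma replicate 2 (−1.999). The same held with DESeq2 on all 20 libraries (−1.994), with DESeq2 size factors (−1.991) and after thinning to the shallowest library (−1.97). NEFM, a neurofilament gene, fell by 2.39 on the log2 scale, the brain creatine kinase gene CKB by 2.57 and RGMA, a relative of RGMB, by 2.25.

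Compared with the cjPGCLCs of the same pre-ME, soma differed in fewer genes, mostly lower in soma. Of the 15795 genes, 71 were higher in soma than in cjPGCLCs (0.45%) and 378 were lower (2.39%). This comparison does not use the pre-ME libraries. HAND2 stood at 836 and 403 in cjPGCLCs against 3509.9 and 2567 in soma (log2 fold change 2.26 ± 0.41, edgeR adjusted p = 0.00154), and POSTN at 1151 and 634 against 5189 and 3797 (2.30 ± 0.30), and both lay inside the fold threshold without cjPGCLC replicate 2, at 1.85 and 1.95. TBX5 and DLK1 were also higher in soma, by 2.27 ± 0.44 and 2.46 ± 0.46. The 71 genes higher in soma came down to 44 without soma replicate 2.

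Some genes that rose from pre-ME to soma were within the fold threshold against cjPGCLCs. HAND1 stood at 4155 and 3343 in cjPGCLCs (log2 fold change 0.15 ± 0.22, adjusted p = 0.791), PRRX1 at 2584 and 1773 (1.18 ± 0.22), TWIST1 at 2145 and 1459 (0.93 ± 0.25) and SNAI2 at 1122 and 1098 (1.17 ± 0.17), the last 3 past the adjusted p. Of 20 HOX genes, 5 were higher in soma than in cjPGCLCs and none lower. HOXA10 stood at 5.32 and 4.73 in cjPGCLCs (3.22 ± 0.56, adjusted p = 0.00121), HOXA9 at 5.32 and 3.15 (2.77 ± 0.50) and HOXD3 at 7.59 and 15.8 (2.39 ± 0.43), the last with an adjusted p of 0.0586 without cjPGCLC replicate 1.

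Endoderm and some germ cell genes were lower in soma than in cjPGCLCs. SOX17 stood at 2152 and 2096 in cjPGCLCs (log2 fold change −4.63 ± 0.53, adjusted p = 2.53e-05), and HNF4A at 835 and 446 against 9.22 and 1.55 in soma (−7.09 ± 0.79). FOXA2 stood at 518 and 356 in cjPGCLCs and at the floor in soma. Of 15 tested definitive endoderm genes other than the sort marker CXCR4, 5 were lower in soma and none higher. GATA2, TBX3 and TNC were lower in soma, with log2 fold changes of −2.20, −2.50 and −3.37.

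The same step taken with ActA in the pre-induction gave similar numbers of called genes, and the difference between both arms was tested as an interaction over 8 libraries, none shared between the arms. With ActA, 835 genes were higher in soma than in pre-ME (5.29%) and 476 lower (3.01%). The interaction was past an adjusted p of 0.05 in 454 genes, with no fold threshold: in 317 (2.01%) the change was more positive without ActA, and in 137 (0.867%) more negative. These numbers moved with the method, to 584 and 285 with DESeq2, and between 86 and 297 and between 16 and 77 when 1 of the 8 libraries was left out, lowest without soma + ActA replicate 2 for the first and pre-ME + ActA replicate 1 for the second. Leaving out any 1 of the 8 moved the second number by over 1.5 times, and so did each for the first except pre-ME − ActA replicate 1 and pre-ME + ActA replicate 2.

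Posterior HOXA genes were among those with the largest interaction. HOXA10 stood at 112 and 77.2 in pre-ME + ActA and 103 and 32.8 in soma + ActA, a log2 fold change of −0.52, against at least 20.3-fold higher without ActA (interaction 5.45 ± 0.77, edgeR adjusted p = 0.00107). HOXA9 stood at 243 and 178 against 113 and 56.6 with ActA (interaction 5.12 ± 0.60, adjusted p = 1.86e-04), and HOXA13 at 161 and 176 against 545 and 261 (2.74 ± 0.47). The soma libraries of both arms overlapped for HOXA10 and HOXA13, while for HOXA9 both soma + ActA libraries were higher, and pre-ME + ActA was above pre-ME − ActA in every library for all 3 genes. The interaction of HOXA10 is a fitted estimate, since pre-ME − ActA was at the floor.

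ADRA1B, an adrenergic receptor, rose without ActA from 20 and 14.9 to 108 and 161 (log2 fold change 2.90 ± 0.31) and fell with ActA from 1333 and 1029 to 200.1 and 231 (interaction 5.36 ± 0.38, adjusted p = 2.33e-06). FN1 stood at 39203 and 29949 in pre-ME + ActA and 110395 and 71370.4 in soma + ActA (interaction 2.53 ± 0.33, adjusted p = 4.54e-04). For both genes the 2 pre-ME groups did not overlap.

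Contractile and BMP feedback genes shared this pattern. ACTC1 stood at 502 and 343 in pre-ME + ActA and 427 and 468 in soma + ActA (interaction 2.88 ± 0.42, adjusted p = 0.0013), CNN1 at 1229 and 747 against 692 and 738 (2.86 ± 0.46) and MYOCD at 184 and 216 against 381 and 307 (2.55 ± 0.38). Of 21 tested contractile genes, 7 had a more positive change without ActA and none a more negative one. Over all tested genes, 2.01% were more positive and 0.867% more negative. SMAD7 stood at 847 and 638 against 2146 and 2124 (2.53 ± 0.29, adjusted p = 1.82e-04), and 7 of 29 tested BMP genes were more positive without ActA and none more negative. Of 11 tested Nodal and Activin response genes, a list that also holds SMAD7, 4 were more positive without ActA and none more negative. Several of the contractile and BMP genes counted lost the call in fits that left out 1 library, among them BMPER, TBX3, SMAD6, NOG, TAGLN and ACTA2. SMAD7, HEY1, ACTC1, CNN1 and MYOCD kept it in every such fit.

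The lateral plate factors that rose most were not past the interaction test. TBX20 rose with ActA by a log2 fold change of 7.48, HAND1 by 7.73, PRRX1 by 7.44 and GATA4 by 5.72. Of 27 tested lateral plate genes, 3 had a more positive change without ActA and 1 a more negative one. Over all tested genes, these shares were 2.01% and 0.867%. On the other side, NPY1R, a neuropeptide Y receptor, fell without ActA from 748 and 1053 to 168 and 178 and stood at 65.9 and 77.2 against 193 and 197 with ActA (interaction −3.85 ± 0.47, adjusted p = 2.34e-04). RXRG fell without ActA and stood at 40.1 and 54.8 against 56.7 and 83.5 with it (−3.01 ± 0.49, adjusted p = 0.00336). HDC, histidine decarboxylase, was at least 10.8-fold lower in soma without ActA, with 38.9 and 86.2 normalised counts in pre-ME.

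**Figure D5:**
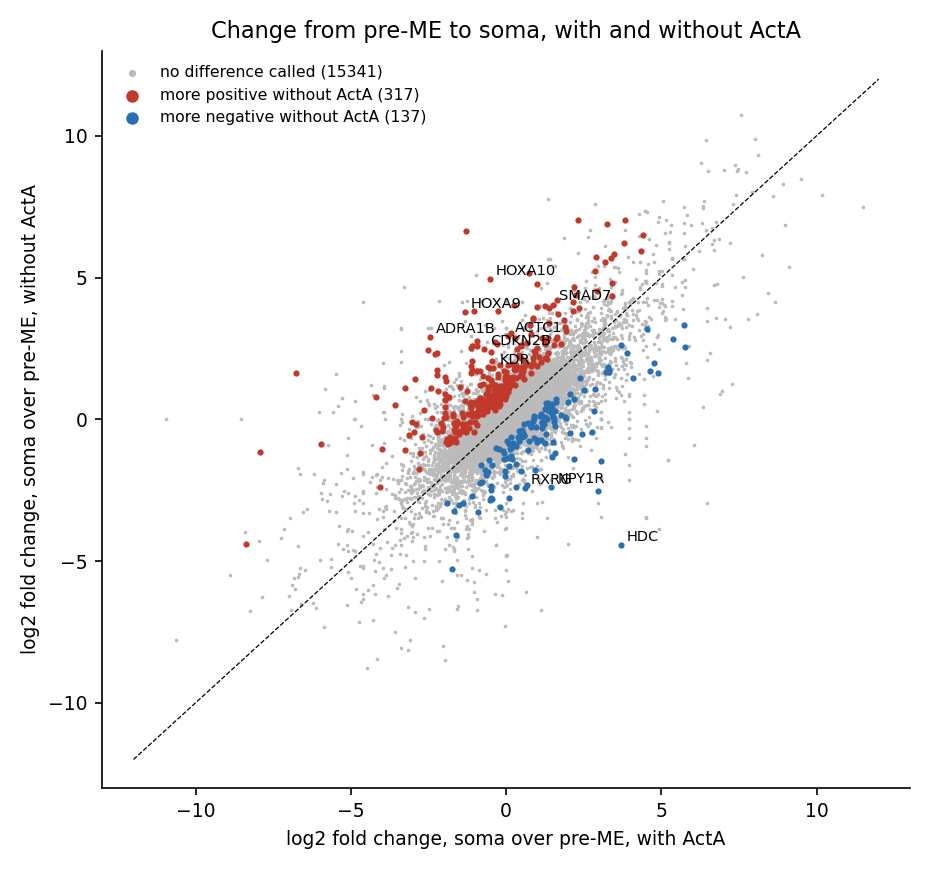
Log2 fold change of soma over pre-ME without ActA (vertical axis) against the same fold change with ActA (horizontal axis) for 15795 genes; the dashed line marks equal change and the 2 axes share no library. Red points are the 317 genes with a more positive change without ActA, HOXA10, HOXA9 and ADRA1B among them, and blue points the 137 with a more negative change, NPY1R, RXRG and HDC among them.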

How the data were processed

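Poly(A) RNA was sequenced from 20 libraries of 10 conditions, with 2 replicates each, isolated with the PicoPure or the RNeasy kit (which kit served which library is not given in the sources used here). According to the submitters' processing notes, FastQC 0.11.8, STAR 2.7.0a, HTSeq 0.11 and DESeq2 were used. Per the study's methods, reads were aligned to the marmoset assembly calJac4. The annotation release and the strand setting of the counting are not given in the sources used here, so overlapping, antisense and near-identical genes (actins, myosins, keratins, CDKN2A and CDKN2B) are uncertain. The authors deposited raw counts per gene for all libraries. They also deposited normalised counts, a signal equal to the count divided by a size factor per library. No further column of per-sample values was left out, and rows with no gene name, at most 0.00378% of the counts, were set aside; reads assigned to no feature came to between 17.2% and 22.6% in the 4 libraries compared.

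Counts were fitted with edgeR 4.0.16 (R 4.3.3, limma 3.58.1): TMM normalisation, the default expression filter by group, 1 coefficient per condition over all 20 libraries, and the quasi-likelihood F-test with Benjamini-Hochberg adjustment over 15795 genes, of 25100 listed. A call needed an adjusted p below 0.05 and a log2 fold change beyond 2, and the interaction an adjusted p below 0.05. Standard errors are the absolute log2 fold change divided by the square root of F. A group with at most 3 counts in each library was set at 3 counts in each for bounds, which cover counting error only. On simulated data for soma against pre-ME in which 200 of 15223 genes differed by 3 on the log2 scale, 197 were recovered with 2 false calls. For the interaction on the same number of genes, 190 were recovered with 6 false calls. The simulation gave every gene the same dispersion and all groups the same mean profile. Changes were set in soma − ActA only, among genes above a minimum level. These figures therefore check the fit and do not give the error rates in the real data.

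Named genes were the 12 with the largest folds and the 10 with the largest difference in normalised counts in each direction, the members of 26 gene lists, and the 5 with the largest interaction in each direction. Some genes of these sets are not reported here, and which list members are described singly was decided with their values known. The gene lists and the comparison itself were chosen with earlier results of these data known. Alternatives were DESeq2 1.42.0, its size factors, other filters, a fit on 4 libraries, glmTreat, thinning to the shallowest library, a replicate block and leaving out each library. The crossed block, the list counts under each alternative and the list counts without the sort markers were added after seeing the data. Figures were drawn with matplotlib 3.10.9.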

Additional observations from a re-analysis of the deposited data

Results flagged for a closer look

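The change from pre-ME to soma differed between the arms without and with ActA in 40 named genes, by the interaction test (edgeR, adjusted p between 2.33e-06 and 0.0487). Values are log2 differences of the 2 changes, positive where the change was more positive without ActA. HOXA9 had 5.12, HOXA10 had 5.45 and HOXA13 had 2.74. ADRA1B had 5.36. FN1 had 2.53, SMAD7 had 2.53 and HEY1 had 1.58. MYOCD had 2.55, ACTC1 had 2.88 and CNN1 had 2.86. CDKN2B, a cell cycle inhibitor, had 3.19 and KDR had 2.24. On the negative side NPY1R had −3.85 and RXRG had −3.01. These genes stayed past the test in all 8 fits that left out 1 library.

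The other genes lost the call in at least 1 of those 8 fits. NOG (1.97), ACTA2 (1.32) and LEF1 (2.00) kept it in 6, LAMB1 (1.27) and HDC (−8.13) in 5, EVX1 (3.14) in 4, and DGKK (−4.53) in 7. TGFBI (1.59), PGF (2.11), CGNL1 (1.51) and COL1A2 (2.26) kept it in 3. CDX1 (3.97), RAP1GAP2 (8.38), VIPR1 (−5.50) and MAP2 (−1.05) kept it in 2, and SMAD6 (1.39), COL4A1 (1.31) and TAGLN (1.60) in 1. BMPER (2.30), GPR143 (6.76), OLFM4 (−3.58), CRABP1 (−1.43), DOK4 (0.94), FBLN1 (1.00), NEFM (1.67) and TBX3 (1.74) kept it in none. The values of HDC, RAP1GAP2, GPR143, VIPR1 and HOXA10 are fitted estimates from low counts.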

How the results depend on the processing

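The counts of genes called between soma and pre-ME lay between 637 and 846 (higher) and between 368 and 534 (lower) under every alternative but glmTreat, which tests against the fold threshold itself and gave 293 and 71. Leaving out 1 of the 4 libraries gave 741 to 846 higher and 400 to 433 lower. A fit with a replicate block, which treats same-numbered libraries as paired, called 793 higher and 469 lower. The numbers are not known to pair the samples: same-numbered libraries deviated from their group means with r = −0.119 across genes, and with the numbers exchanged the block gave 791 and 464. Against cjPGCLCs the leave-outs gave 44 to 53 higher and 256 to 365 lower, and the block 70 and 371. The interaction was the least stable: DESeq2 gave 584 and 285, the leave-outs 86 to 297 and 16 to 77, and the block 318 and 134. Of 188 genes named for soma against pre-ME, 155 were called; 12 of these lost the call when 1 library was left out, 5 in another setting and 64 under glmTreat. MKI67 lay on both sides of 0, at −0.0178 without the filter and −0.26 to 0.38 over the leave-outs (−0.04 without soma replicate 2), and HAND1 against cjPGCLCs at −0.0814 to 0.352. Under glmTreat the pluripotency list had 4 members lower, the germ cell list 4 and the epithelial junction list 0, while the BMP and lateral plate lists had 14 higher each. The cause of these shifts was not tested. Soma replicate 1, with 4784783 reads on genes, sets the depth limit: a gene at the floor there can still have held 6.92 normalised counts.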

Other observations

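The hypoxia and glycolysis genes that were called went in both directions. By adjusted p alone, 15 members were lower and 4 higher, against 21.7% and 20.6% of all tested genes. Of 27 tested, 3 were called higher in soma than in pre-ME and 2 lower (median log2 fold change −0.59), with 1 lower without pre-ME replicate 1 or soma replicate 2. ADM, the vasodilator peptide adrenomedullin, rose from 185 and 248 normalised counts to 1628 and 1182 (2.68 ± 0.33, edgeR adjusted p = 7.60e-06), and VEGFA, the endothelial growth factor, from 117 and 106 to 491 and 489 (2.10 ± 0.28). ENO2, a neuronal enolase, fell from 185 and 197 to 41.5 and 29.4 (−2.48 ± 0.44). Cholesterol synthesis genes stayed mostly within the threshold, with 1 of 24 tested called lower and none higher (median −0.24), and 0 lower without pre-ME replicate 1 or soma replicate 2.

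Of 26 tested immediate early and stress genes, which can respond to cell handling, 2 were called lower in soma and none higher (median log2 fold change −0.40). FOSB fell from 529 and 403 to 101 and 63.4 (−2.56 ± 0.59) and FOSL1 from 84.3 and 98.1 to 11.5 and 9.28 (−3.17 ± 0.68). Among 11 tested Nodal and Activin response genes, 3 were called higher, SMAD7 and INHBA among them, and GDF3 was called lower. INHBA, which encodes the subunit of Activin A itself, rose from 13 and 12.9 to 55.3 and 80.4 (2.38 ± 0.47), with 1.98 after thinning to the shallowest library.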
